A study of Mus musculus with 18 samples.

Results

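The proteasome is the barrel-shaped protease that breaks down ubiquitin-tagged proteins. Its core is built of alpha rings, which form the gate, and beta rings, 3 of whose subunits (Psmb5, Psmb6 and Psmb7) carry the cutting sites. A regulatory cap of ATPases (Psmc) and non-ATPase subunits (Psmd) recognises and unfolds substrates, while PA28 (Psme1 with Psme2, or Psme3 alone) and PA200 (Psme4) are alternative activators of the core. Lymphocytes and interferon-treated cells also make the immunoproteasome, in which Psmb8, Psmb9 and Psmb10 take the places of Psmb5, Psmb6 and Psmb7 and shift the peptides that reach class I MHC. The genes described here were those of the expression table named Psma to Psmg with a number, leaving out pseudogene names. The rule gave 50 of 12547 genes: 8 alpha ring genes, 4 noncatalytic beta ring genes, 3 constitutive and 3 immunoproteasome catalytic genes, 6 base ATPases, 11 other cap subunits, 7 assembly factors, 5 activators and the regulator Psmf1 (PI31). The other 2, Psmc3ip (a recombination factor) and Psme3ip1 (a PA28 gamma partner), share the name pattern but are not subunits.

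RNA was sequenced from mouse naive CD4 T cells activated with anti-CD3/CD28 beads under Th1 conditions with IL2, IL12 and an antibody against IL4, which all groups share. Cells were either deficient for Id3 (KO), an inhibitor of E protein transcription factors, or wild type (WT), and the 6 groups were KO and WT cells of set 3, of set 5 and of set 6, with 3 libraries each. The labels give no strain, age or sex, do not say which cells of the mouse lack Id3, and do not say whether replicates are separate mice, so the tests measure the spread between these libraries, which may be technical. The names of the authors' contrasts tie set 3 to the number 24 and sets 5 and 6 to 96, with no unit.

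The targeted gene, Id3, lay between 1.0 and 5.63 (log2) in the 9 KO libraries, against 8.85 to 10.08 in the 9 WT libraries. The markers Cd3e, Cd3g, Cd4 and Cd28 were all at or above 11.52 in all 18 libraries, but moved with genotype: 3 of the 4 were lower in KO cells of set 3, and all 4 were higher in KO cells of set 5 and of set 6. Their summed level was 14.25 to 14.49 in KO and 14.78 to 14.89 in WT libraries of set 3, 15.76 to 15.85 in KO and 15.21 to 15.36 in WT libraries of set 5, and 15.97 to 16.04 in KO and 15.39 to 15.66 in WT libraries of set 6. Relative to the median gene of each library, 3 were lower in set 3, 2 higher in set 5 and 1 higher in set 6. Markers of other cells were not even between the groups. The summed level of 4 mast cell and basophil markers was 8.37 to 8.78 in KO libraries of set 3, against 5.64 to 6.61 in WT libraries of set 3, and that of 2 erythroid markers was 10.88 to 13.11 in KO, against 7.84 to 8.61 in WT. In set 3 B cell markers (4, at 7.55 to 10.43 in KO, against 5.67 to 6.96 in WT) and dendritic cell markers (2, at 6.27 to 6.95 in KO, against 4.73 to 5.75 in WT) were also apart. In sets 5 and 6 the mast cell and erythroid sums were lower in KO than in WT or overlapped. The lower mast cell sum rested on Kit, at 3.87 to 6.20 in KO and 7.30 to 7.85 in WT. Cpa3 went the other way in set 6, at 4.36 to 5.71 in KO and 3.47 to 3.99 in WT. Of the 4 mast cell markers, 0 were called higher and 1 lower in set 5, and 1 and 1 in set 6. The summed level of 4 B cell markers was 6.26 to 7.08 in KO, against 4.38 to 5.79 in WT, in these sets. Of these 4, 1 was called higher in set 5 and 0 in set 6. The sum of the 2 macrophage and monocyte markers was 3.18 to 5.38 in KO, against 2.21 to 2.70 in WT, in set 5. In set 6 that sum was 5.81 to 7.50 in KO, against 2.03 to 3.42 in WT. The higher sum rested on Adgre1, at 2.79 to 5.31 in KO and 1.37 to 2.11 in WT libraries of set 5. Adgre1 was 5.76 to 7.48 in KO and 1.03 to 3.12 in WT libraries of set 6. Lyz2 was at most 2.05 in sets 5 and 6 and overlapped between genotypes in both. The listed markers Csf1r and Cd14 were not measured. The sum of the 2 CD8 T cell markers, Cd8a and Cd8b1, was 8.62 to 9.05 in KO, against 7.78 to 8.58 in WT, in set 5. That sum overlapped in set 3 (9.70 to 10.11 in KO, 9.93 to 10.20 in WT) and in set 6 (8.58 to 9.09 in KO, 8.24 to 9.40 in WT). Of these 2, 1 was called higher in set 5, and 0 were called in set 3 or set 6. The sum of 4 Th1 markers was 14.94 to 15.72 in KO, against 14.11 to 14.33 in WT, in set 3. It was 14.76 to 15.71 in KO, against 14.20 to 14.28 in WT, in set 5. In set 6 it overlapped, at 15.04 to 16.34 in KO and 15.01 to 15.12 in WT. This sum mostly reads Ifng, at or above 13.63 in all libraries, where the other Th1 markers were at most 12.64. Of the 4, 2 were called higher and 0 lower in set 3, 1 and 0 in set 5, and 1 and 2 in set 6. Tbx21 was 10.59 to 10.83 in KO and 11.04 to 11.27 in WT libraries of set 3. The part of these marker differences in the results below was not tested. Values are the authors' log2 expression values, and a gene was called higher or lower when its adjusted p was under 0.05 in 1 limma fit over all genes. The median of all genes was not level: it was 0.39 higher in KO than in WT in set 5 and 0.42 higher in set 6, but 0.07 lower in set 3. The fit was therefore repeated on values relative to the median gene of each library ("centred").

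In set 5 and set 6 the immunoproteasome genes and the activators Psme1, Psme2 and Psme4 were higher in KO cells than in WT cells, while most of the remaining core and cap genes did not follow. In set 5, 11 of the 50 genes were higher and 17 lower in KO cells, beside 50.1% and 8.08% of all genes. The higher genes were Psmb1, Psmb4, Psmb8, Psmb9, Psmb10, Psmd4, Psmd9, Psme1, Psme2, Psme4 and Psmf1. In set 6, 15 were higher and only Psma4 was lower, beside 53.9% and 4.59% of all genes. In set 3, no member was higher and 2 (Psme1 and Psmg4) were lower, beside 6.92% and 4.46%, and centred 0 were higher and 1 (Psme1) lower, beside 7.29% and 3.28%; at an unadjusted p under 0.05 (limma), 0 were higher and 13 lower, beside 12.3% and 14.9% of all genes. The counts of lower genes leaned on single libraries: dropping KO replicate 1, KO replicate 3 or WT replicate 1 left 10, 9 and 7 in set 5. Dropping KO replicate 1, KO replicate 2, WT replicate 1 or WT replicate 3 gave 2, 4, 0 and 4 in set 6, and the set 3 count was 1 without KO replicate 3, WT replicate 2 or WT replicate 3. Relative to the median gene, 40 of 50 members were lower in KO cells of set 5 and 1 (Psme4) was higher, beside 24.7% and 24.9% of all genes, and in set 6 33 were lower and 2 (Psmb9 and Psme2) higher, beside 18.5% and 18.8%. Psmb1, Psmb4 and Psmd4 in set 5, and Psmb1 and Psmd8 in set 6, were higher as deposited but lower once centred. Lack of overlap was common as deposited. All KO libraries lay above all WT libraries for 14 members in set 5 and below for 14, beside 54.3% and 9.69% of all genes. In set 6 the counts were 18 and 1, beside 59.1% and 6.01%, and in set 3 they were 0 and 15, beside 12% and 17.9%.

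**Figure D1:**
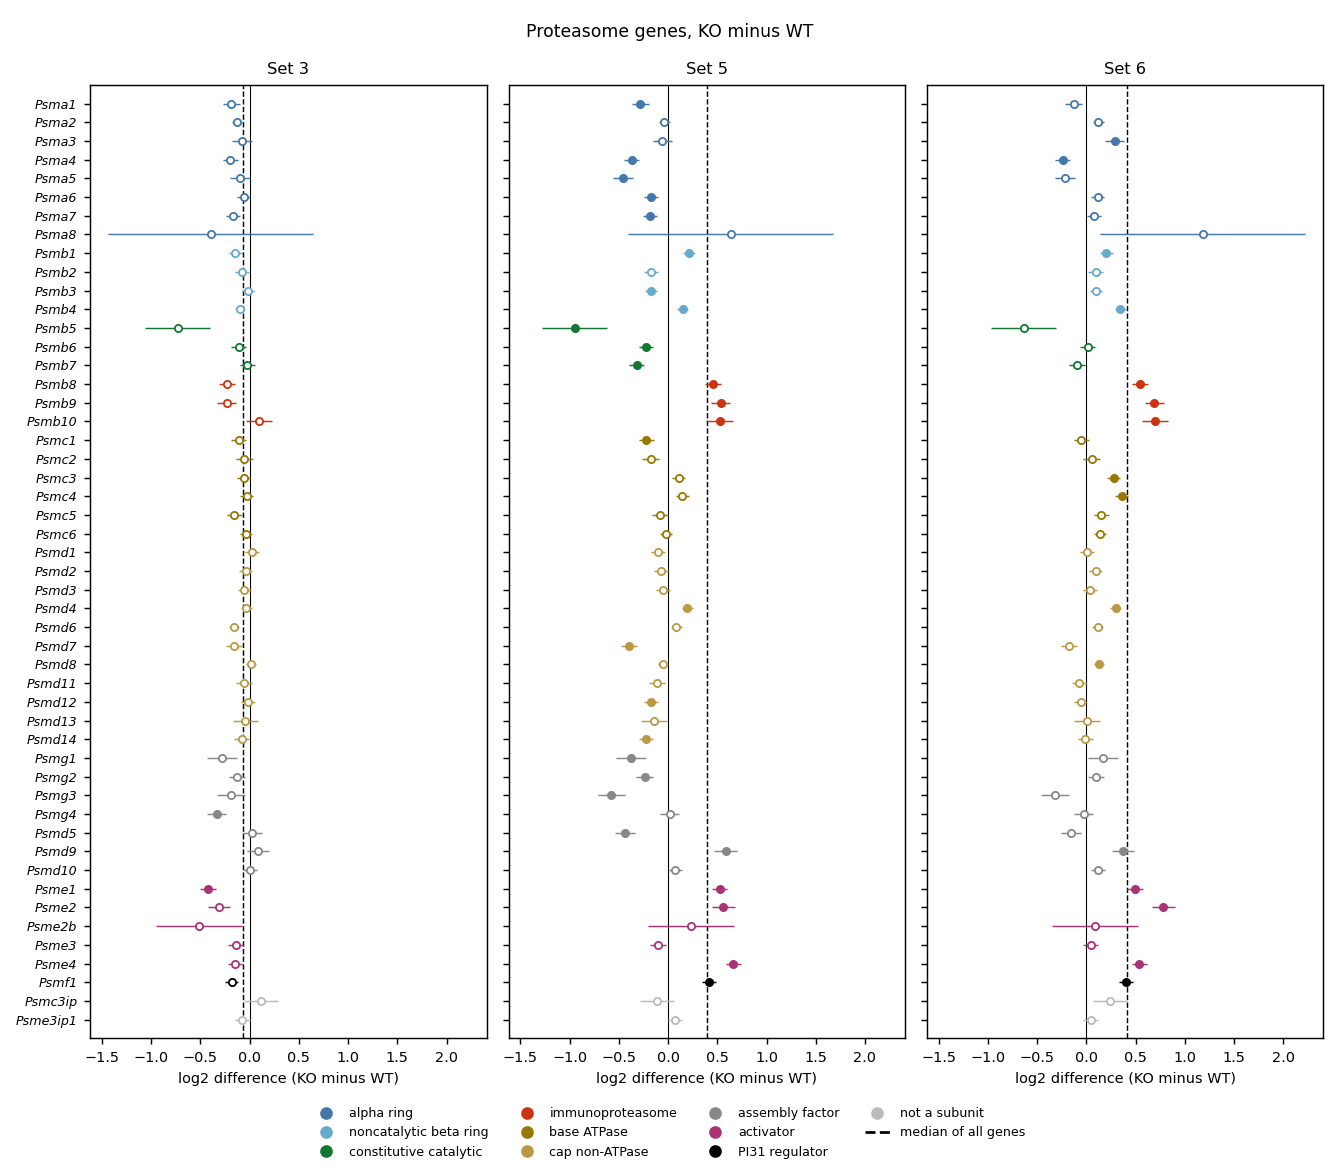
Log2 difference of KO minus WT (x axis) for each of the 50 genes (rows, coloured by role) in sets 3, 5 and 6. Points are differences of group means with their standard error, filled where the adjusted p was under 0.05, and the dashed line is the median of all genes (0.39 in set 5 and 0.42 in set 6). The immunoproteasome genes lie right of that line in sets 5 and 6 and the constitutive catalytic genes lie left of it.

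Catalytic subunits are shown with the stretch before their start because paired subunits parted in KO cells. The 4 printed are those with a match to a searched form: the Psmb10 window had 0 matches to any of them, and Psmb7 had no window in the table. The sequences, from the RefSeq promoter table (GRCm38.p6), run 5′ to 3′ on the gene's strand and end at the base before the start. Capitals mark a match to TTCNNNGAA, the form of an interferon gamma-activated site (GAS-like), in Psmb8. In Psmb5 and Psmb6 they mark TGACNNNGC, the form bound by NFE2L1. In Psmb9 they mark an E-box, the site type of E proteins, of the form CAGGTG read on the other strand. The Psmb9 stretch is the 225 bases between the starts of Psmb9 and its neighbour Tap1, which is read in the opposite direction.
Psmb8, chr17:34197945-34198194, plus strand: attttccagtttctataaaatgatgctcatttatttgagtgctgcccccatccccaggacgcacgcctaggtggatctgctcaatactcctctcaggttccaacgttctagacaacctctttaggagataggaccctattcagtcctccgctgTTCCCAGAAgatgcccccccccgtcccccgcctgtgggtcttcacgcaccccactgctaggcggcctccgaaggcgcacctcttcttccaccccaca
Psmb5, chr14:54617996-54618245, minus strand: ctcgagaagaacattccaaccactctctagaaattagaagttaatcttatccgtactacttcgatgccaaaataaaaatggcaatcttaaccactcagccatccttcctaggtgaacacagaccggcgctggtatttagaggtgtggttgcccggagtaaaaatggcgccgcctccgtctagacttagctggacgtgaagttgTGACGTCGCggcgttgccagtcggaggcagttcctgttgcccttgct
Psmb9, chr17:34187331-34187555, minus strand: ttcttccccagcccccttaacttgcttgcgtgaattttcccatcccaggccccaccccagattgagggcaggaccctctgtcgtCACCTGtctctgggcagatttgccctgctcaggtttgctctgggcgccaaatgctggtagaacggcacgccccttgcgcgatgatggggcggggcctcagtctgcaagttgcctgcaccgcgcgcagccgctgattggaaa
Psmb6, chr11:70525107-70525356, plus strand: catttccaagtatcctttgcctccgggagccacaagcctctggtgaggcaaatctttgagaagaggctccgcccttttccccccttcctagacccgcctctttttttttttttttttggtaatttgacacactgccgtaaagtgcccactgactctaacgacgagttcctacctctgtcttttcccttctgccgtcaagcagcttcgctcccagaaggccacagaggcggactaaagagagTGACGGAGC

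These letters were not particular to the family. Of the 50 members 42 had a promoter in the table, as 46 windows among 32851, and each search covered the 250 bases before the start on both strands. TGACNNNGC was in 10.9% of member windows and 10.2% of all windows, and TTCNNNGAA in 4.35% and 7.02%. The ISRE-like form, GAAA followed after 2 free bases by a second GAAA, was in 6.52% of member windows (Psmb3, Psmd4 and Psmd9) and 2.98% of all windows. CAGGTG was in 19.6% of member windows against 17.2% of all windows, and CAGCTG in 4.35% against 13.0%. A match is a description of these letters and not a binding site.

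Among the immunoproteasome genes, Psmb8 (the beta5i subunit) stood at 14.86, 14.82 and 14.83 in KO libraries of set 5, against 14.34, 14.39 and 14.42 in WT libraries of set 5. In set 6 its values were 14.74, 14.87 and 14.83 in KO libraries, against 14.30, 14.26 and 14.24 in WT libraries. All 3 KO libraries lay above all 3 WT libraries in both sets, with a difference of 0.45 ± 0.08 (SE) in set 5 (adjusted p = 0.000158) and 0.55 ± 0.08 in set 6 (adjusted p = 3.03e-05). In set 3 its values were 14.10, 13.92 and 13.93 in KO libraries, against 14.08, 14.11 and 14.46 in WT libraries, and the groups overlapped.

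Psmb9 (beta1i) had 13.00, 13.14 and 12.97 in KO libraries of set 5, against 12.46, 12.47 and 12.57 in WT libraries of set 5. Its values in set 6 were 13.16, 13.19 and 13.09 in KO libraries, against 12.40, 12.50 and 12.47 in WT libraries. The groups did not overlap in either set, and the difference was 0.53 ± 0.09 in set 5 (adjusted p = 0.00015) and 0.69 ± 0.09 in set 6 (adjusted p = 1.49e-05). In set 3 its values ran over 11.79 to 12.14 in KO libraries and 12.06 to 12.44 in WT libraries, again with overlap. Psmb10 (beta2i) had 13.03, 13.18 and 13.35 in KO libraries of set 5, against 12.57, 12.71 and 12.72 in WT libraries of set 5. In set 6 it had 13.15, 13.09 and 13.47 in KO libraries, against 12.55, 12.51 and 12.57 in WT libraries. KO was again above WT in every library of both sets, by 0.52 ± 0.13 (adjusted p = 0.00329) in set 5 and 0.70 ± 0.13 (adjusted p = 0.000352) in set 6. In set 3 Psmb10 had 12.46, 12.22 and 12.14 in KO libraries and 11.96, 12.04 and 12.53 in WT libraries. Centred, the 3 genes moved close to the median gene: 0.06, 0.14 and 0.13 in set 5 (no call) and 0.13, 0.28 and 0.28 in set 6, where only Psmb9 was called (adjusted p = 0.0303).

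The constitutive counterparts did not rise. Psmb6 (beta1) had 12.97, 13.04 and 13.02 in KO libraries of set 5, against 13.31, 13.24 and 13.16 in WT libraries of set 5, and the difference was -0.22 ± 0.07 (adjusted p = 0.0169). Psmb7 (beta2) had 12.83, 12.97 and 12.82 in KO libraries of set 5, against 13.31, 13.14 and 13.14 in WT libraries of set 5 (-0.32 ± 0.08, adjusted p = 0.00209). KO lay below WT in every library for both genes. In set 6 both genes overlapped between genotypes: Psmb6 had 13.25, 13.22 and 13.15 in KO libraries and 13.31, 13.20 and 13.09 in WT libraries (0.01, adjusted p = 0.91). Psmb7 had 13.12, 13.19 and 13.02 in KO libraries of set 6 and 13.35, 13.15 and 13.12 in WT libraries of set 6 (-0.10, adjusted p = 0.296). In set 3 the 2 genes lay between 13.40 and 13.63 in KO libraries and between 13.44 and 13.75 in WT libraries.

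For Psmb5 (beta5), KO replicate 1 lay above KO replicates 2 and 3 in sets 3, 5 and 6. Psmb5 was the member with the lowest KO minus WT difference in each of these sets. In set 5 it had 12.97, 11.94 and 11.78 in KO libraries, against 13.25, 13.15 and 13.13 in WT libraries (-0.95 ± 0.33, adjusted p = 0.0207). The set 6 values were 13.23, 12.19 and 12.18 in KO libraries, against 13.31, 13.09 and 13.11 in WT libraries (-0.64, adjusted p = 0.108). In set 3 it had 13.57, 12.60 and 12.23 in KO libraries, against 13.58, 13.54 and 13.47 in WT libraries (-0.73, adjusted p = 0.165). KO replicate 1 lay within the range of the WT libraries in sets 3 and 6 and below it in set 5, and KO replicates 2 and 3 lay about 1 log2 unit lower. Leaving out KO replicate 1 of the set compared gave -1.12 in set 3 (adjusted p = 0.0482), -1.32 in set 5 (0.00241) and -0.98 in set 6 (0.018). The set 5 value was no longer called when KO replicate 2 (-0.80, adjusted p = 0.0767), KO replicate 3 (-0.73, 0.101) or WT replicate 1 (-0.91, 0.0554) was dropped. Centred, Psmb5, Psmb6 and Psmb7 were called lower in both sets, at -1.34, -0.61 and -0.71 in set 5 and -1.05, -0.40 and -0.51 in set 6.

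**Figure D2:**
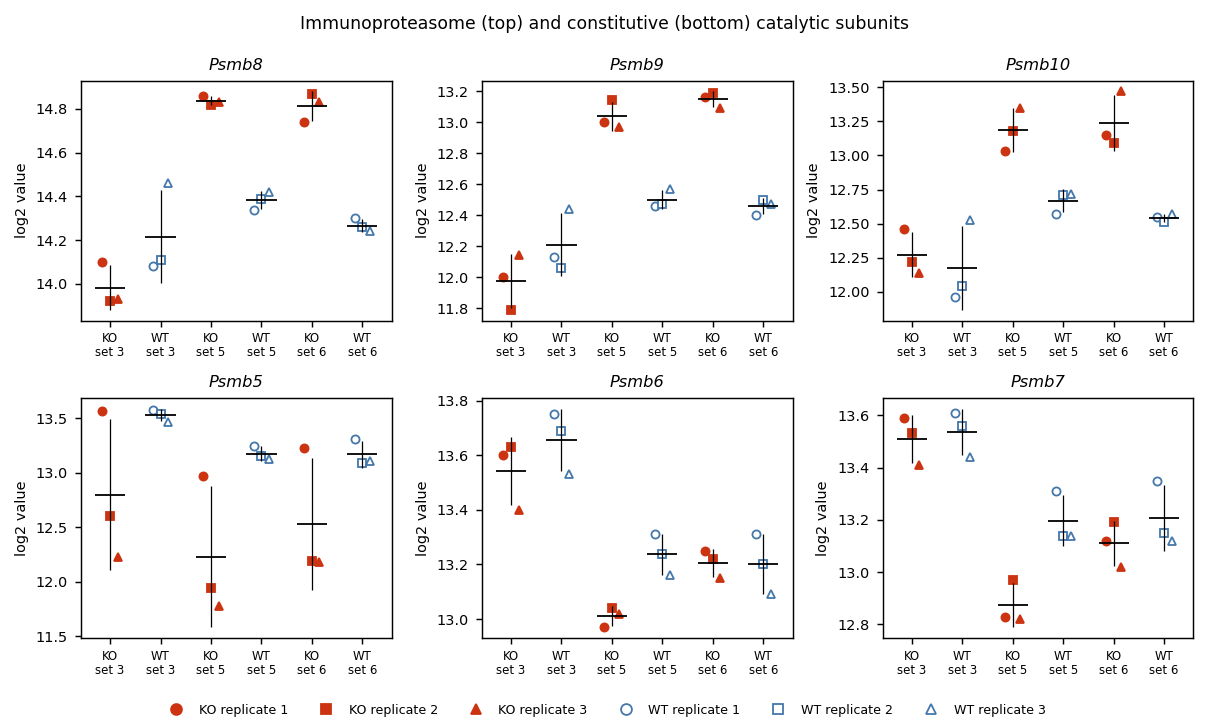
Log2 value (y axis) of the immunoproteasome genes (top) and of the constitutive catalytic genes they replace (bottom) in each library, by group (x axis). Symbols give the replicate number, horizontal lines the group mean and vertical lines the SD of 3 libraries. KO libraries of sets 5 and 6 lie above WT for Psmb8, Psmb9 and Psmb10, and KO replicate 1 stands apart for Psmb5. KO libraries lie above WT without overlap for 54.3% of all genes in set 5 and 59.1% in set 6.

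Subtracting the constitutive from the immunoproteasome partner within a library removes a scaling that is the same for all genes of that library. It does not remove one that varies with expression level. The values are not per length, so the sign of such a difference is not a ranking of the 2 genes, and it was compared between groups only. Psmb8 minus Psmb5 was 1.89, 2.88 and 3.05 in KO libraries of set 5, against 1.09, 1.24 and 1.28 in WT libraries of set 5. It was 1.51, 2.68 and 2.64 in KO libraries of set 6, against 0.99, 1.17 and 1.13 in WT libraries of set 6. KO lay above WT without overlap in both sets, by a mean of 1.40 in set 5 and 1.18 in set 6, though the KO mean in set 5 (2.61 ± 0.63, SD, n = 3) carries the spread of Psmb5. Psmb9 minus Psmb6 was 0.03, 0.09 and -0.05 in KO libraries of set 5, against -0.84, -0.77 and -0.59 in WT libraries of set 5. Psmb10 minus Psmb7 was 0.20, 0.21 and 0.53 in KO libraries of set 5, against -0.74, -0.43 and -0.42 in WT libraries of set 5. Both groups were again apart, by 0.76 and 0.84 in set 5 and by 0.68 and 0.79 in set 6. In set 3 the 3 pair differences overlapped between genotypes, with mean KO minus WT of 0.50, -0.12 and 0.12 in the same order. These pair values are descriptions and carry no p.

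**Figure D3:**
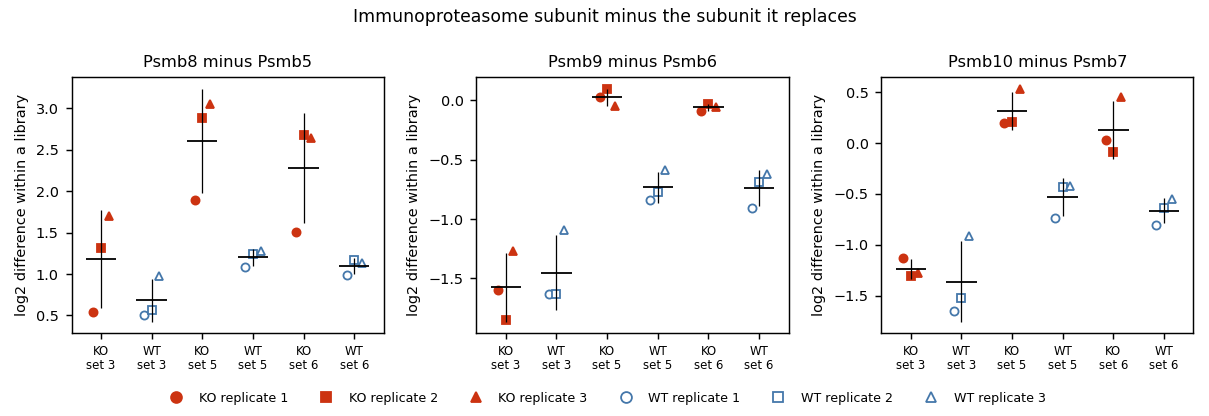
Difference of log2 values within a library (y axis) between each immunoproteasome gene and the gene it replaces, by group (x axis). Symbols give the replicate number, horizontal lines the mean and vertical lines the SD of 3 libraries. In sets 5 and 6 the KO libraries lie above the WT libraries in all 3 pairs, and in set 3 the genotypes overlap.

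The activators divided by type. Psme1 (PA28 alpha) had 14.24, 13.92 and 14.17 in KO libraries of set 5, against 13.58, 13.60 and 13.57 in WT libraries of set 5 (0.52 ± 0.08, adjusted p = 3.9e-05). In set 6 it had 14.15, 14.00 and 14.06 in KO libraries, against 13.50, 13.67 and 13.57 in WT libraries (0.49 ± 0.08, adjusted p = 7.68e-05). In set 3 the order was the other way round, with 14.08, 14.03 and 13.86 in KO libraries, against 14.44, 14.33 and 14.47 in WT libraries (-0.42 ± 0.08, adjusted p = 0.00303). The genotypes did not overlap in any of these 3 sets. Its partner Psme2 (PA28 beta) had 14.06, 14.52 and 14.55 in KO libraries of set 5, against 13.78, 13.83 and 13.84 in WT libraries of set 5 (0.56 ± 0.12, adjusted p = 0.000632). In set 6 Psme2 had 14.24, 14.64 and 14.67 in KO libraries, against 13.72, 13.70 and 13.78 in WT libraries (0.78 ± 0.12, adjusted p = 3.32e-05). KO replicate 1 was the lowest KO library of Psme2 in sets 5 and 6, still above every WT library. In set 3 it had 14.00, 14.15 and 14.09 in KO libraries, against 14.45, 14.32 and 14.40 in WT libraries (-0.31, adjusted p = 0.0971). Centring ended the Psme1 calls of set 5 (0.13, adjusted p = 0.182) and set 6 (0.08, 0.463) and the Psme2 call of set 5 (0.17, 0.243), and kept that of Psme2 in set 6 (0.37, 0.0208).

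Psme4 (PA200) had 10.57, 10.53 and 10.54 in KO libraries of set 5, against 9.84, 9.87 and 9.95 in WT libraries of set 5 (0.66 ± 0.08, adjusted p = 1.92e-06). Set 6 gave 10.82, 10.80 and 10.72 in KO libraries, against 10.12, 10.21 and 10.41 in WT libraries (0.54 ± 0.08, adjusted p = 1.92e-05). It was the member that stayed called higher in set 5 after centring (0.27, adjusted p = 0.00722), while its set 6 call was lost (0.12, 0.213). Psmf1 (PI31, first found as an inhibitor of the core) had 10.88, 10.63 and 10.69 in KO libraries of set 5, against 10.38, 10.31 and 10.27 in WT libraries of set 5 (0.41 ± 0.07, adjusted p = 0.000104). In set 6 Psmf1 had 10.83, 10.86 and 10.83 in KO libraries, against 10.44, 10.42 and 10.46 in WT libraries (0.40, adjusted p = 0.000156), and centring took both values to the median gene (0.02 and -0.01). In set 3, Psme4 had 10.28, 10.44 and 10.43 in KO libraries, against 10.51, 10.49 and 10.59 in WT libraries, and Psmf1 had 10.57, 10.54 and 10.51, against 10.64, 10.70 and 10.83. Neither gene passed the test in set 3, though the genotypes did not overlap.

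Psme3 (the nuclear PA28 gamma) did not follow the other activators. It had 12.02, 12.19 and 12.05 in KO libraries of set 5, against 12.23, 12.20 and 12.13 in WT libraries of set 5 (-0.10, adjusted p = 0.276). In set 6 it had 12.39, 12.29 and 12.30 in KO libraries and 12.34, 12.34 and 12.18 in WT libraries (0.04, adjusted p = 0.676), and the genotypes overlapped in both sets. Centred, it was called lower in both (-0.49 in set 5 and -0.37 in set 6). In set 3 it had 13.31, 13.46 and 13.21 in KO libraries and 13.53, 13.58 and 13.30 in WT libraries. Psme2b, a near copy of Psme2, overlapped between genotypes in all 3 sets. Its values are uncertain, since 76.5% of the 31-base words of its transcript also occur in Psme2, and reads of the 2 genes could be split between them.

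**Figure D4:**
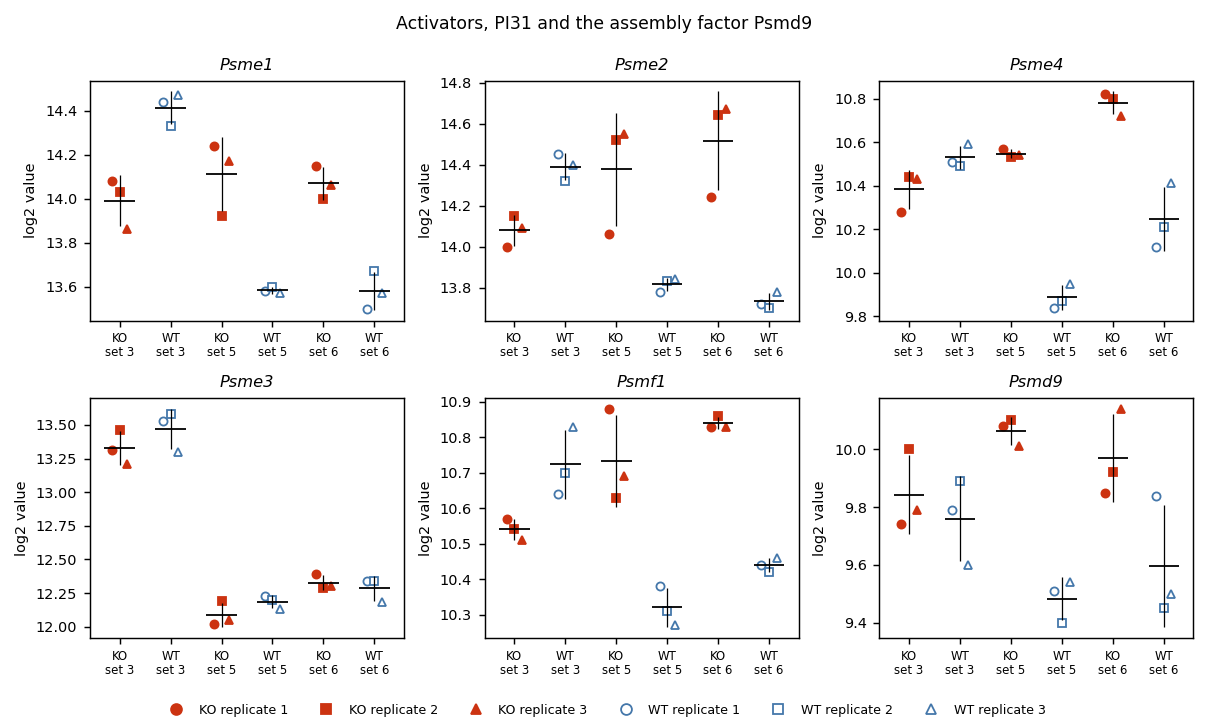
Log2 value (y axis) of the activators Psme1, Psme2, Psme4 and Psme3, of Psmf1 and of the assembly factor Psmd9 in each library, by group (x axis). Symbols give the replicate number, horizontal lines the group mean and vertical lines the SD of 3 libraries. KO libraries of sets 5 and 6 lie above WT for every gene drawn except Psme3, and for 54.3% and 59.1% of all genes.

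The structural core and the cap were nearer to zero as deposited and below the median gene once centred. In these roles and the assembly factors, the members given in full were picked by their greatest and least set 5 difference. Their set 5 tests and lack of overlap are not independent of that choice. In set 5, 5 of 8 alpha ring genes were lower in KO cells (Psma1, Psma4, Psma5, Psma6 and Psma7) and none was higher. Psma5 had 12.21, 12.43 and 12.21 in KO libraries of set 5, against 12.95, 12.68 and 12.59 in WT libraries of set 5 (-0.46 ± 0.10, adjusted p = 0.00121). Its set 6 values were 12.51, 12.73 and 12.56 in KO libraries and 12.98, 12.80 and 12.69 in WT libraries, with overlap (-0.22, adjusted p = 0.0775). Centred, Psma5 was called lower in both sets (-0.85 and -0.63). In set 3 Psma5 had 13.26, 13.33 and 13.23 in KO libraries and 13.48, 13.43 and 13.20 in WT libraries. Psma8, a testis form of an alpha subunit, lay between 1.0 and 5.71 over the 18 libraries and overlapped between genotypes in every set.

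Of the 4 noncatalytic beta ring genes, Psmb1 and Psmb4 were higher and Psmb3 lower in KO cells of set 5. Psmb1 had 13.19, 13.25 and 13.23 in KO libraries of set 5, against 13.07, 12.96 and 12.99 in WT libraries of set 5 (0.21 ± 0.06, adjusted p = 0.01). In set 6 it had 13.25, 13.28 and 13.20 in KO libraries, against 13.16, 12.94 and 13.02 in WT libraries (0.20, adjusted p = 0.0143). KO lay above WT in both sets, and centring turned the sign to -0.18 (adjusted p = 0.0338) and -0.21 (0.018). In set 3 Psmb1 had 12.92, 12.88 and 12.72 in KO libraries, against 12.92, 13.05 and 13.00 in WT libraries (-0.15, adjusted p = 0.156). Psmb2 had 13.23, 13.46 and 13.30 in KO libraries of set 5 and 13.57, 13.51 and 13.44 in WT libraries of set 5 (-0.17, adjusted p = 0.0525). It had 13.58, 13.67 and 13.52 in KO libraries of set 6 and 13.66, 13.45 and 13.38 in WT libraries of set 6, and 13.48, 13.43 and 13.40 in KO libraries of set 3, against 13.52, 13.48 and 13.54 in WT libraries of set 3. Psmb2 passed the test in none of the 3 sets as deposited, and centred it was lower in sets 5 and 6 (-0.56 and -0.32).

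Among the base ATPases, which unfold substrates, 1 of 6 was called in set 5. Psmc1 had 12.33, 12.47 and 12.17 in KO libraries of set 5 and 12.64, 12.56 and 12.43 in WT libraries of set 5 (-0.22 ± 0.08, adjusted p = 0.0199). Psmc4 had 12.29, 12.41 and 12.30 in KO libraries of set 5, against 12.28, 12.23 and 12.06 in WT libraries of set 5 (0.14, adjusted p = 0.0747). In set 6 Psmc3 and Psmc4 were called higher. Psmc4 then had 12.50, 12.48 and 12.46 in KO libraries, against 12.19, 12.17 and 12.01 in WT libraries (0.36 ± 0.07, adjusted p = 0.000233). Centred, Psmc4 was lower in set 5 (-0.25, adjusted p = 0.00591) and not called in set 6 (-0.05, 0.566). Psmc1 had 12.60, 12.61 and 12.61 in KO libraries of set 6 and 12.73, 12.71 and 12.54 in WT libraries of set 6, with overlap. In set 3 neither gene passed the test: Psmc1 had 12.84, 12.84 and 12.74 in KO libraries, against 12.97, 12.91 and 12.88 in WT libraries, and Psmc4 had 12.59, 12.59 and 12.51, against 12.59, 12.66 and 12.52.

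Of the 11 other cap subunits, Psmd7, Psmd12 and Psmd14 were lower and Psmd4 was higher in KO cells of set 5. Psmd7, a lid subunit, had 11.41, 11.62 and 11.44 in KO libraries of set 5, against 12.01, 11.83 and 11.83 in WT libraries of set 5 (-0.40 ± 0.08, adjusted p = 0.000571). Psmd4, a ubiquitin receptor, had 12.37, 12.39 and 12.51 in KO libraries of set 5, against 12.20, 12.26 and 12.21 in WT libraries of set 5 (0.20 ± 0.05, adjusted p = 0.00493). Both were without overlap. In set 6 Psmd4 had 12.62, 12.56 and 12.53 in KO libraries, against 12.31, 12.31 and 12.21 in WT libraries (0.29, adjusted p = 0.000198). Psmd7 had 11.70, 11.85 and 11.70 in KO libraries of set 6 and 12.08, 11.91 and 11.78 in WT libraries of set 6 (-0.17, adjusted p = 0.0803). In set 3 Psmd4 overlapped between the genotypes, with 12.54 to 12.65 in KO libraries and 12.60 to 12.65 in WT libraries, while Psmd7 had 12.58, 12.66 and 12.60 in KO libraries, against 12.85, 12.76 and 12.71 in WT libraries (-0.16, adjusted p = 0.219). Over the 17 base and cap genes together, the median difference was -0.08 in set 5 and 0.05 in set 6. Relative to the median gene, all 17 were lower in set 5 and 14 of 17 in set 6. Psmd4 then differed by -0.19 in set 5 (adjusted p = 0.00689) and -0.12 in set 6 (0.0956), and Psmd7 by -0.79 and -0.59, both called.

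Assembly factors went both ways. Psmg1, Psmg2 and Psmg3, chaperones of the core, and Psmd5, a chaperone of the base, were lower in KO cells of set 5, and Psmd9, another base chaperone, was higher. Psmg3 had 8.78, 9.14 and 9.01 in KO libraries of set 5, against 9.64, 9.65 and 9.37 in WT libraries of set 5 (-0.58 ± 0.14, adjusted p = 0.00218). Psmd9 had 10.08, 10.10 and 10.01 in KO libraries of set 5, against 9.51, 9.40 and 9.54 in WT libraries of set 5 (0.58 ± 0.11, adjusted p = 0.00036). Both were clear of overlap in set 5, the set by which they were picked. In set 6 Psmd9 had 9.85, 9.92 and 10.14 in KO libraries, against 9.84, 9.45 and 9.50 in WT libraries (0.37 ± 0.11, adjusted p = 0.0105). Psmg3 had 9.25, 9.44 and 9.22 in KO libraries of set 6 and 9.79, 9.79 and 9.28 in WT libraries of set 6 (-0.32, adjusted p = 0.0626). In set 3 Psmd9 had 9.74, 10.00 and 9.79 in KO libraries and 9.79, 9.89 and 9.60 in WT libraries, and Psmg3 had 10.71, 10.88 and 10.54 in KO libraries and 10.88, 11.01 and 10.80 in WT libraries. Neither passed the test there. Centring ended both Psmd9 calls (0.19, adjusted p = 0.171, in set 5 and -0.04, 0.81, in set 6), and Psmg3 was then lower in both sets (-0.96 and -0.73).

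The KO minus WT difference was itself tested between sets, and Psme1 was lower in KO cells of set 3 and higher in KO cells of sets 5 and 6. The KO minus WT difference was greater in set 5 than in set 3 for 12 members and smaller for 2 (interaction contrast, limma adjusted p under 0.05), beside 43.2% and 6.82% of all genes. For set 6 against set 3 it was greater for 17 members and smaller for 0, beside 46.2% and 4.11%. After centring, 4 members had a greater and 30 a smaller difference in set 5 than in set 3, beside 18.7% and 18.5%, and 4 a greater and 20 a smaller difference in set 6 than in set 3, beside 12.7% and 11.4%. Psme1 moved the most on the deposited scale among the PA28 genes in set 5, by 0.95 ± 0.11 (adjusted p = 8.23e-06), and Psme2 in set 6, by 1.09 ± 0.16 (adjusted p = 7.32e-05). Psme1, Psme2 and Psmb9 kept a greater difference in both sets after centring (adjusted p = 0.0021, 0.0395 and 0.0488 in set 5, and 0.00725, 0.00989 and 0.0161 in set 6). The count of 2 members with a smaller difference in set 5 (Psmb7 and Psmd5) was 5 without KO replicate 2 of set 5, and 1 without any of KO replicates 1 and 2 and WT replicate 3 of set 3 or KO replicates 1 and 3 and WT replicate 1 of set 5. Between sets 6 and 5 no member had a different KO effect (limma), nor did any of the 12547 genes, with 11 members greater and 0 smaller at an unadjusted p under 0.05, beside 6.81% and 3.71% of all genes.

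Within each genotype, set 5 and set 3 differed in most proteasome genes, and the immunoproteasome genes moved against most of the rest of the core. Of the 15 other core genes 10 were lower and 1 higher (Psmb1, by 0.38) in KO cells, and 11 were lower and 0 higher in WT cells, where Psmb1 differed by 0.02. In KO cells 7 members were higher and 31 lower in set 5 than in set 3, beside 49.8% and 23.4% of all genes. In WT cells 3 were higher and 38 lower, beside 29.3% and 38.3%. The median over the 50 members was -0.53 in KO cells and -0.44 in WT cells, where the median over all genes was 0.38 and -0.12. Centred, 4 were higher and 42 lower in KO cells, beside 35.6% and 35.7% of all genes, and 4 higher and 36 lower in WT cells, beside 30.5% and 36.8%. In both genotypes 7 of 8 alpha ring genes were lower in set 5, as were 14 of 17 base and cap genes in KO cells and 15 of 17 in WT cells. Psmg3 differed by -1.73 ± 0.14 in KO cells (adjusted p = 1.22e-08) and by -1.35 ± 0.14 in WT cells (3.65e-07), Psmd7 by -1.12 and -0.89, and Psme3 by -1.24 and -1.28. Psmb9 was higher in set 5 by 1.06 ± 0.09 in KO cells (adjusted p = 3.84e-08) and by 0.29 ± 0.09 in WT cells (0.0119). Psmb10 was higher by 0.91 ± 0.13 in KO cells (1.24e-05) and by 0.49 ± 0.13 in WT cells (0.00445). Psmb8 was higher by 0.85 ± 0.08 in KO cells (7.96e-08), and in WT cells the value was 0.17 ± 0.08 (0.0815). Centred, all 3 were called higher in both genotypes. The PA28 genes went apart by genotype: Psme1 differed by 0.12 in KO cells (0.198) and by -0.83 in WT cells (1.65e-07), and Psme2 by 0.30 (0.031) and -0.57 (0.00038). Psme2b had the widest difference of all members, 3.51 in KO cells and 2.76 in WT cells, subject to the shared sequence given above.

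**Figure D5:**
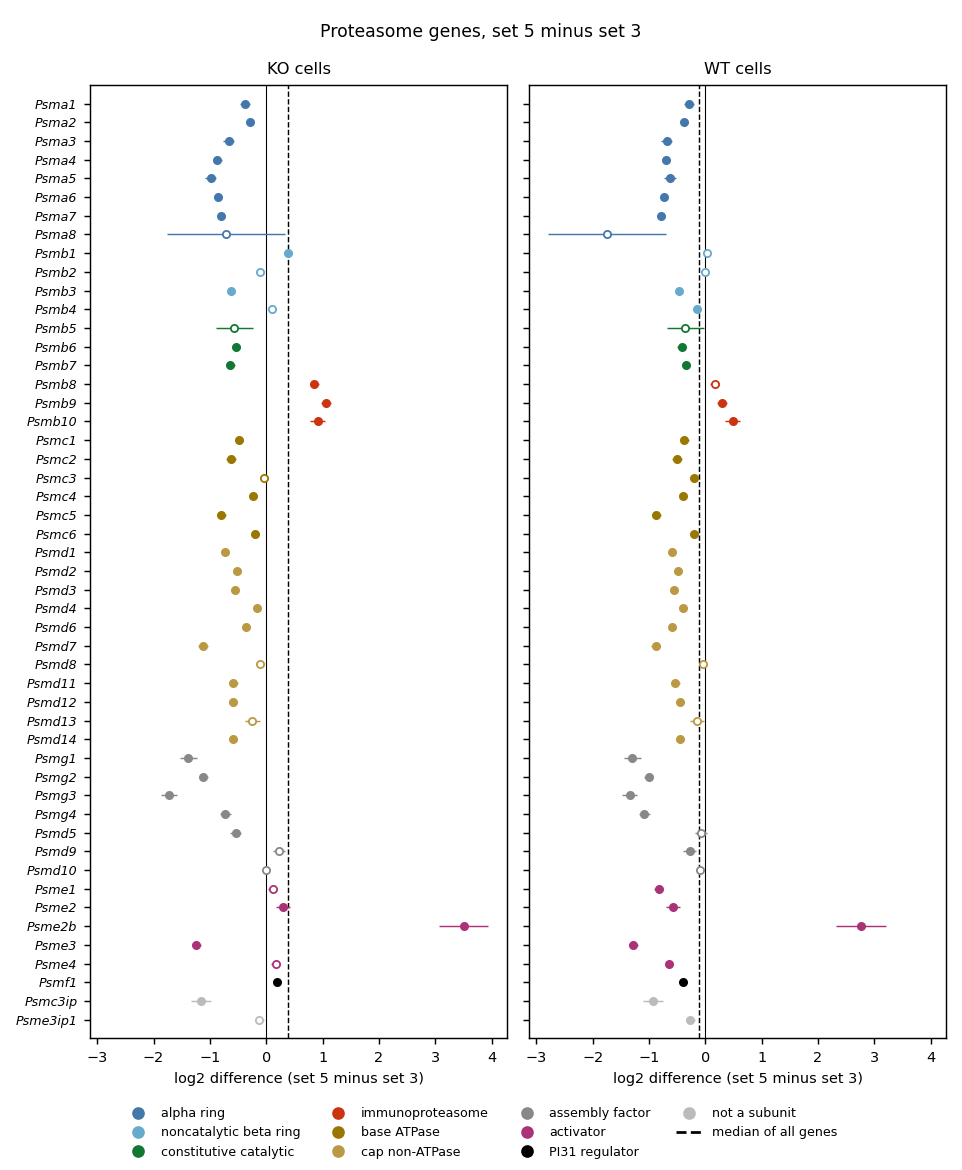
Log2 difference of set 5 minus set 3 (x axis) for each of the 50 genes (rows, coloured by role) in KO cells and WT cells. Points are differences of group means with their standard error, filled where the adjusted p was under 0.05, and the dashed line is the median of all genes (0.38 in KO cells and -0.12 in WT cells). The alpha ring, ATPase and cap genes lie left of zero in both genotypes and the immunoproteasome genes lie right of it.

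Set 6 gave much the same counts against set 3: 10 members higher and 24 lower in KO cells, beside 54% and 19.3% of all genes, and 3 higher and 35 lower in WT cells, beside 32.6% and 35.1%. The core genes Psmb1 and Psmb4 were among the 10 higher in KO cells. Centred, set 6 against set 3 had 4 members higher and 41 lower in KO cells, beside 35.1% and 35.4%, and 2 higher and 38 lower in WT cells, beside 31.1% and 37%. The deposited count of 3 (Psmb9, Psmb10 and Psme2b) was 1 without WT replicate 1 or 2 of set 3, or WT replicate 3 of set 6. Set 6 against set 5 showed 15 members higher and 0 lower in KO cells, beside 9.93% and 2.03% of all genes, with differences of 0.17 to 0.45. The replicate numbers deviated together in that pair, and with the number as a block the count was 25 over all libraries and 23 over the libraries of the 2 groups. For this and the other block counts, the share of all genes called was not counted. The 15 were core and cap genes and the assembly factor Psmd5, with no immunoproteasome or activator gene among them, and the count was 5 without KO replicate 1 of set 5, 23 without KO replicate 2 of set 5, 4 without KO replicate 3 of set 5, and 5 without KO replicate 1 or 2 of set 6. In WT cells 1 member, Psme4, was higher in set 6 (0.36, adjusted p = 0.0166) and none was lower, beside 3.01% and 0.359%. That call was lost without WT replicate 1 or 2 of set 5, or WT replicate 2 or 3 of set 6, and with the number as a block over the 2 groups 3 were higher and 1 lower. Centred, 4 were higher and 0 lower in KO cells, beside 3.87% and 3.64%, and 0 higher and 0 lower in WT cells, beside 1.49% and 0.566%. As deposited and at an unadjusted p under 0.05, 31 were higher and 0 lower in KO cells, beside 22.1% and 5.79% of all genes, and 2 higher and 0 lower in WT cells, beside 14.3% and 3.64%.

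Genes that work with the proteasome were read from 4 lists in KO against WT, where 50.1% of all genes were higher in set 5 and 53.9% in set 6 as deposited, and 24.9% and 18.8% once centred. The shares of all genes that were lower in sets 5 and 6 were 8.08% and 4.59% as deposited, and 24.7% and 18.5% once centred. Of 9 class I peptide handling genes, 8 were higher in set 5, 9 in set 6 and none in set 3. They included Tap1 (0.93 in set 5 and 0.94 in set 6), which with Tap2 carries peptides into the endoplasmic reticulum, Tapbp (1.27 and 1.41) and B2m (1.09 in set 5), and after centring 6 were higher and 1 lower in set 5, and 6 higher and 0 lower in set 6. Of 9 genes that control subunit genes, 5 were higher in both sets, a share near that of all genes, and 2 were lower, a share above that of all genes. Centred, 4 were higher and 4 lower in set 5 and 4 and 3 in set 6. Irf1, an interferon-induced activator of immunoproteasome genes, differed by 1.96 ± 0.14 in set 5 and 1.89 ± 0.14 in set 6, and Nlrc5, an activator of class I genes, by 1.26 and 0.92. Nfe2l2 (-0.57 and -0.81) and Irf8 (-0.87 and -1.04) were lower, and Nfe2l1, which drives constitutive subunit genes when the proteasome is blocked, did not pass the test in either set (-0.04 and 0.14). Of 14 ubiquitin supply and delivery genes 7 were higher in set 5, again near the share of all genes, and 11 in set 6, among them Ubb (0.74 and 0.93). Of 12 measured partners of the 26S proteasome 7 were higher and 1 lower in set 5 and 10 higher in set 6. The count of 10 was 6 without WT replicate 2 of set 6, and the 1 lower, Usp14 (-0.26 in set 5), was not called without KO replicate 1, KO replicate 3 or WT replicate 1. Centring changed the ubiquitin list to 2 higher and 7 lower in set 5 and 2 higher and 6 lower in set 6, and the 26S partners to 1 higher and 7 lower in set 5 and 1 higher and 4 lower in set 6. The median differences of the 4 lists, in the order given, were 0.78, 0.29, 0.23 and 0.18 in set 5, where that of all genes was 0.39. In set 3 the lists held 0 higher genes and 2 lower ones, Fbxo7 (-0.40) and Ubqln2 (-0.30), beside 6.92% and 4.46% of all genes. The Ubqln2 call was lost without any 1 of KO replicates 1 and 3 and WT replicates 1 and 2.

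The authors' deposited table of comparisons held the same fold changes for every gene, to within 8.35e-14 of the differences of group means. It called 6 members higher in KO cells of set 5 (Psmb8, Psmb9, Psmd9, Psme1, Psme2 and Psme4) and 6 of set 6 (Psmb8, Psmb9, Psmb10, Psme1, Psme2 and Psme4). The share of all genes called in the authors' table was not counted, so these counts cannot be set against all genes. In the authors' deposited table no member was lower in sets 5 and 6, none was called in set 3, and none between sets 6 and 5 in either genotype.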

How the data were processed

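RNA-seq libraries were prepared from poly(A) RNA with a directional kit, per the labels' protocols. Salmon 1.9.0, the GRCm39 build, edgeR and limma are named, with no roles, per the submitters' processing notes. The deposited table holds log2 values of 12547 genes in 18 libraries. Sorted values were identical for 97% to 98.4% of ranks within each group, so distributions had been equalised within groups: depth per library is unknown, and p-values may be too small. The authors' deposited table of comparisons gives log2 fold changes, p-values and a moderated t score per gene, and its t scores were not used.

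Group means were fitted in 1 linear model (limma 3.58.1, R 4.3.3, 12 residual degrees of freedom, trend) with Benjamini-Hochberg adjustment over all genes, and again after subtracting each library's median. Tests were tried on simulated data built on KO against WT of set 5. There 12 of 100 genes changed by 0.3 and 83 of 100 changed by 1 (log2) were recovered, with 4 false calls. Only these of 12547 genes were changed and no median shift was built in, whereas 50.1% and 8.08% of genes were called in the data. The recovered shares therefore need not hold for the data. Members described with all values were the catalytic subunits, Psme1 to Psme4 and, in each other role, those with the greatest and least set 5 difference. The members and lists were chosen with earlier results of these data known. Replicate numbers deviated together (every correlation over 0.1, genes with mean log2 of 6 or more) in WT set 5 and 3 (0.15 to 0.20), KO set 6 and 5 (0.36 to 0.52) and WT set 6 and 5 (0.27 to 0.39). That pairing is a hint from the data, since the labels do not state it. Alternatives were other scalings, a replicate block, other variance settings, filters, a minimum fold of 1.2 and leaving out each library. Values of some genes of the pathway lists are not reported here.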

Additional observations from a re-analysis of the deposited data

Results flagged for a closer look

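The KO minus WT difference (log2) was not the same in set 5 as in set 3 for 14 members, by the interaction contrast of the limma fit on deposited values. It was greater for 12 and smaller for 2, beside 43.2% and 6.82% of all genes. It was greater in set 5 by 0.95 for Psme1, 0.87 for Psme2 and 0.81 for Psme4 among the activators, and by 0.60 for Psmf1. Among catalytic genes it was greater by 0.69 for Psmb8 and 0.77 for Psmb9, and smaller for Psmb7 (-0.29). Among the other core and cap genes it was greater by 0.36 for Psmb1, 0.25 for Psmb4, 0.23 for Psmd4 and 0.24 for Psmd6. Among assembly factors it was greater by 0.35 for Psmg4 and 0.50 for Psmd9, and smaller for Psmd5 (-0.46).

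The difference was greater in set 6 than in set 3 for 17 members and smaller for 0, beside 46.2% and 4.11% of all genes. The values were 0.92 for Psme1, 1.09 for Psme2, 0.69 for Psme4 and 0.58 for Psmf1. They were 0.78 for Psmb8, 0.92 for Psmb9 and 0.60 for Psmb10. Core genes gave 0.25 for Psma2, 0.36 for Psma3, 0.25 for Psma7, 0.35 for Psmb1 and 0.44 for Psmb4. Cap genes gave 0.34 for Psmc3, 0.39 for Psmc4, 0.31 for Psmc5, 0.33 for Psmd4 and 0.27 for Psmd6. The median of all genes was 0.39 and 0.42 higher in KO cells of sets 5 and 6 and 0.07 lower in KO cells of set 3, and the part of that shift in these values was not tested beyond the centred fit. In the centred fit 4 members had a greater and 30 a smaller difference in set 5 than in set 3, beside 18.7% and 18.5% of all genes. For set 6 against set 3, 4 were greater and 20 smaller, beside 12.7% and 11.4%.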

How the results depend on the processing

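Scaling decided most counts. With centring and with quantile normalization, members higher in KO than in WT numbered 1 and 1 in set 5 and 2 and 2 in set 6, and members lower numbered 1 and 1 in set 3, 40 and 39 in set 5, and 33 and 33 in set 6. Members higher in KO cells of set 5 than of set 3 were 4 and 4, and members with a different KO effect were 34 and 33 for set 5 minus set 3, and 28 with quantile normalization for set 6 minus set 3. Centring turned 10 of the 50 members to a negative KO minus WT difference in set 5 and 30 in set 6. Among the members described with all values, signs turned under centring and quantile normalization in set 5 for Psmb1 (-0.18, -0.13), Psmc4 (-0.25, -0.22) and Psmd4 (-0.19, -0.17). In set 6 they turned for Psmb6 (-0.40, -0.39), Psme3 (-0.37, -0.37), Psmf1 (-0.01, -0.03), Psmb1 (-0.21, -0.20), Psmb2 (-0.32, -0.34), Psmc4 (-0.05, -0.06), Psmd4 (-0.12, -0.13) and Psmd9 (-0.04, -0.04). Under centring these turns follow from subtracting the library medians, and under quantile normalization their cause was not tested. With a minimum fold of 1.2, 0 members were lower in sets 3, 5 and 6, 6 were higher in set 5 and 6 in set 6, 4 and 1 were higher in set 5 than in set 3 of KO and WT cells, and 6 and 6 had a different KO effect in sets 5 and 6. With that fold after centring, chosen after seeing the data, 0 were higher in sets 5 and 6, and 0, 27 and 8 were lower in sets 3, 5 and 6. The replicate block gave 4 lower in set 3 and 4 in set 6 for KO against WT, 25 higher in KO cells of set 6 than of set 5, 4 with a smaller KO effect in set 5 than in set 3, and 2 genes that control subunit genes lower in KO cells of set 3; it added the Psmb5 calls of set 3 (adjusted p = 0.0425) and set 6 (0.0229). Fitting the compared groups only gave 1 lower in set 3 and 11 in set 5, and no trend gave 1 in set 3. Without KO replicate 1 of all sets, also chosen after seeing the data, 8 were lower in set 5. Leaving out 1 library, members lower ranged from 1 to 3 in set 3, 7 to 18 in set 5 and 0 to 4 in set 6, and members higher from 10 to 11 in set 5 and 12 to 20 in set 6. Members lower in set 5 than in set 3 stayed at 31 to 33 in KO cells and 36 to 38 in WT cells, and members higher at 5 to 8 and 2 to 4. Members with a different KO effect were 11 to 16 for set 5 and 14 to 21 for set 6. Where no cause is named, the cause was not tested. Apart from centring, the share of all genes called under these alternatives was not counted, so their counts cannot be set against all genes.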

Other observations

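The position of KO replicate 1 for Psmb5, above KO replicates 2 and 3 in sets 3, 5 and 6, was shared by few genes. Of 8360 genes with a mean log2 value of 8 or more, 7 had KO replicate 1 apart from KO replicates 2 and 3 by over 0.6 in the same direction in all 3 sets, with replicates 2 and 3 within 0.5 of each other. These limits were chosen after the Psmb5 values were seen. The 7 genes were Psmb5 (1.15, 1.10 and 1.04 above the others in sets 3, 5 and 6), Entpd4 (0.92, 1.01 and 0.96), Slamf6 (0.80, 0.995 and 1.42), Mettl17 (-0.79, -0.84 and -0.84), Il6st (-0.74, -0.73 and -0.71), Aasdh (-0.73, -0.94 and -0.81) and Mid1 (-3.66, -2.27 and -2.15). Psmb5, Mettl17 and Entpd4 are on chromosome 14, Slamf6 on 1, Aasdh on 5, Il6st on 13 and Mid1 on X. The share of all considered genes on chromosome 14 was not counted, and a link to position was not tested. The same count was 3 for KO replicate 2, 0 for KO replicate 3, and 5, 1 and 1 for WT replicates 1, 2 and 3. Psmb5 was the one proteasome gene in any of these counts.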
